A study of Homo sapiens with 6 samples.

Results

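The 9 genes described here encode small GTPases of the RAS superfamily: *RASL11A*, *RASL11B*, *RASL12*, *HRAS*, *NRAS*, *RRAS*, *RRAS2*, *RASD1* and *RND3*. They were found by symbol among the 58676 gene identifiers of the count table, and all 9 reached the 10 counts, added up across the 6 libraries, that were asked of the 19072 genes tested. The members were selected on the calls and fold changes of the comparison below in addition to their family, so their differences between groups are given as a description. The samples were MRC5 cells, a human lung fibroblast line, kept for 24 h in conditioned media (CM) from ATII ER:KRASV12 cells, an alveolar epithelial type II (ATII) line in which 4-hydroxytamoxifen (4-OHT) switches on an ER:KRASV12 fusion protein. In one group (control ATII CM, 3 libraries) the ATII cells had been left without 4-OHT, and in the other (4-OHT ATII CM, 3 libraries) they had received it. The comparison asks what fibroblasts change when the neighbouring epithelial cells signal through RAS. Whether 4-OHT stayed in the collected CM is not given in the sources used here, so an effect of the drug on fibroblasts and one of the ATII cells' products cannot be told apart. MRC5 is 1 line, and nothing in the labels says that the 3 libraries of a group came from separate cultures, so the spread between them may be technical.

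RAS-type GTPases are switches that are active with GTP bound and inactive with GDP bound. Exchange factors load GTP, GTPase-activating proteins (GAPs) speed its hydrolysis, and effectors such as RAF kinases and PI3-kinases bind the active form. *HRAS* and *NRAS* are classical RAS genes, whose proteins reach the plasma membrane through lipids added at a C-terminal CAAX motif. *RRAS* and *RRAS2* (TC21) encode related proteins that act in integrin adhesion and PI3-kinase signalling. *RASL11A*, *RASL11B* and *RASL12* encode little-studied RAS-like proteins, of which RASL11A has been described as a nucleolar regulator of ribosomal RNA transcription. *RASD1* is a RAS-like gene induced by glucocorticoids, and *RND3* encodes an atypical GTPase that cannot hydrolyse GTP and opposes the kinase ROCK1, loosening actin stress fibres in fibroblasts.

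Library totals ran from 17691849 to 26389449 counts. All 10 fibroblast markers examined were detected at 10 or more counts, and their summed level was 37238 to 40760.4 CPM (counts scaled to a library size of 1e6) in the control libraries and 38258 to 39721 in the 4-OHT libraries. Of these 10 markers 4 (40%) were called by edgeR's quasi-likelihood test at an adjusted p of 0.05, beside 5.72% of all genes tested. *LUM* (log2 fold change 0.29), *COL3A1* (0.18) and *PDGFRA* (0.22) rose and *VIM* fell (-0.10). The part of these changes in those of the members was not tested. Of 16 ATII and epithelial markers 7 were detected, at a summed 93.5 to 99.6 CPM against 91.5 to 97.2 CPM, mostly from *KRT8* and *KRT18*. *SFTPA1*, *SFTPA2*, *SLC34A2* and *KRT5* were at 0 counts in every library, and *SFTPC*, the surfactant gene that defines ATII cells, had 1 count in all 6 together. Of 7 markers of endothelial, immune and smooth muscle cells 3 were detected, at a summed 2.74 to 3.14 CPM against 3.65 to 4.91 CPM, with *PECAM1* and *CDH5* at 0. *CD14*, a monocyte marker, had 12, 16 and 19 counts in control and 23, 38 and 49 in 4-OHT libraries (log2 fold change 0.97, edgeR adjusted p = 0.0597). The part of these markers in the differences below was not tested. In bulk samples, fewer cells of a type and less RNA per cell cannot be told apart.

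*RASL11A* and *RASL11B* were the members with the clearest difference, so the stretch before the start of each is shown first. Both are the 100 bases before the gene's start in RefSeq on GRCh38.p14, on the plus strand and written 5′ to 3′. Capitals mark GC boxes (GGGCGG, or CCGCCC on the other strand) and CCAAT boxes (CCAAT, or ATTGG on the other strand).
RASL11A, chr13:27270730-27270829, plus strand: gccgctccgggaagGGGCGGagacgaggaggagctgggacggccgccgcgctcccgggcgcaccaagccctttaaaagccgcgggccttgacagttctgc
RASL11B, chr4:52862217-52862316, plus strand: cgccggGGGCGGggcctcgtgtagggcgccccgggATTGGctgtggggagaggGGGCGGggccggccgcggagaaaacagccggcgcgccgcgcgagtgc
Over the 250 bases before the start, the *RASL11A* window held 2 GC boxes and was 72.8% G and C, and the *RASL11B* window held 3 GC boxes and 1 CCAAT box and was 80.4% G and C. GC boxes are common, being present in 42.3% of 27305 RefSeq promoter windows of that length, and CCAAT boxes in 33.0%. Neither window held TATAAA (11.1% of windows), CACGTG (6.49%), the AP-1 motif TGANTCA (6.60%) or the ETS motif CCGGAAGT (3.64%), all searched on both strands. No AP-1 or ETS motif of that spelling was in the windows of the 8 members that had one. The annotation of the count table starts *RASL11A* further upstream than RefSeq does, and its first counted exon, from 27270327 to 27271068, holds the stretch shown. The last 27 bases of the *RASL11B* stretch also lie in its counted exons.

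*RASL11A* and *RASL11B* were both higher in every 4-OHT library than in any control library, and they were the 2 of 9 members called by edgeR's quasi-likelihood test at an adjusted p of 0.05. Both calls were upward. Over all genes tested 5.72% were called, 2.95% upward and 2.76% downward. In 3 members the 4-OHT libraries lay wholly above the control libraries and in 1 wholly below. Over all genes tested the groups did not overlap in 22.1%, with the 4-OHT libraries above in 11.7% and below in 10.4%. Nothing is read from these shares, because the members were listed with this contrast known.

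*RASL11A* (ENSG00000122035; GRCh38 chromosome 13, 27270327 to 27273690, plus strand) had 874, 710 and 855 raw counts in the control libraries and 1277, 1499 and 1541 in the 4-OHT libraries. Scaled for library size these were 40.9, 39.8 and 37.7 CPM against 58.3, 60.1 and 58.6 CPM, so the groups were well apart and each was narrow. The mean went from 39.5 ± 1.63 to 59.0 ± 0.955 CPM (SD, n = 3), a difference of 0.58 on the log2 scale (SE 0.0437; 95% interval 0.49 to 0.67).

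*RASL11B* (ENSG00000128045; chromosome 4, 52862290 to 52866835, plus strand) had 323, 275 and 338 counts in control and 402, 483 and 537 in 4-OHT libraries. In CPM these were 15.1, 15.4 and 14.9 against 18.4, 19.4 and 20.4. All 3 control libraries sat within a narrow band below the lowest 4-OHT library. The mean rose from 15.1 ± 0.242 to 19.4 ± 1.03 CPM, a log2 fold change of 0.36 (SE 0.0692; 95% interval 0.21 to 0.51). The ratio of *RASL11A* to *RASL11B* counts within a library, which no scaling touches, was 2.71, 2.58 and 2.53 in control and 3.18, 3.10 and 2.87 in 4-OHT libraries. The ratio was thus higher in the 4-OHT libraries, which is a description, since both genes were selected on this contrast and their 2 fold changes were not tested against each other. A non-coding gene, *LINC01618*, shares 89.0% of a *RASL11B* transcript, and it had 0 counts in every library.

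*RASL12* (ENSG00000103710; chromosome 15, 65053337 to 65076690, minus strand) had 264, 195 and 256 counts in control and 284, 353 and 365 in 4-OHT libraries. The lowest 4-OHT library was just above the highest control library, which was at 12.4 CPM. *RASL12* was not called, with means of 11.5 ± 0.752 and 13.7 ± 0.621 CPM and a log2 fold change of 0.25 (95% interval 0.074 to 0.42). Of the members, *RASL11B* was the nearest inside the threshold, with an edgeR adjusted p of 0.00511, and *RASL12* the nearest outside it, with 0.0986, which is given as a description. The exons of *RASL12* overlap those of *SLC51B* on the other strand over 60 bases (2.14% of its exon length), and *SLC51B* had 9 to 21 counts per library.

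**Figure D1:**
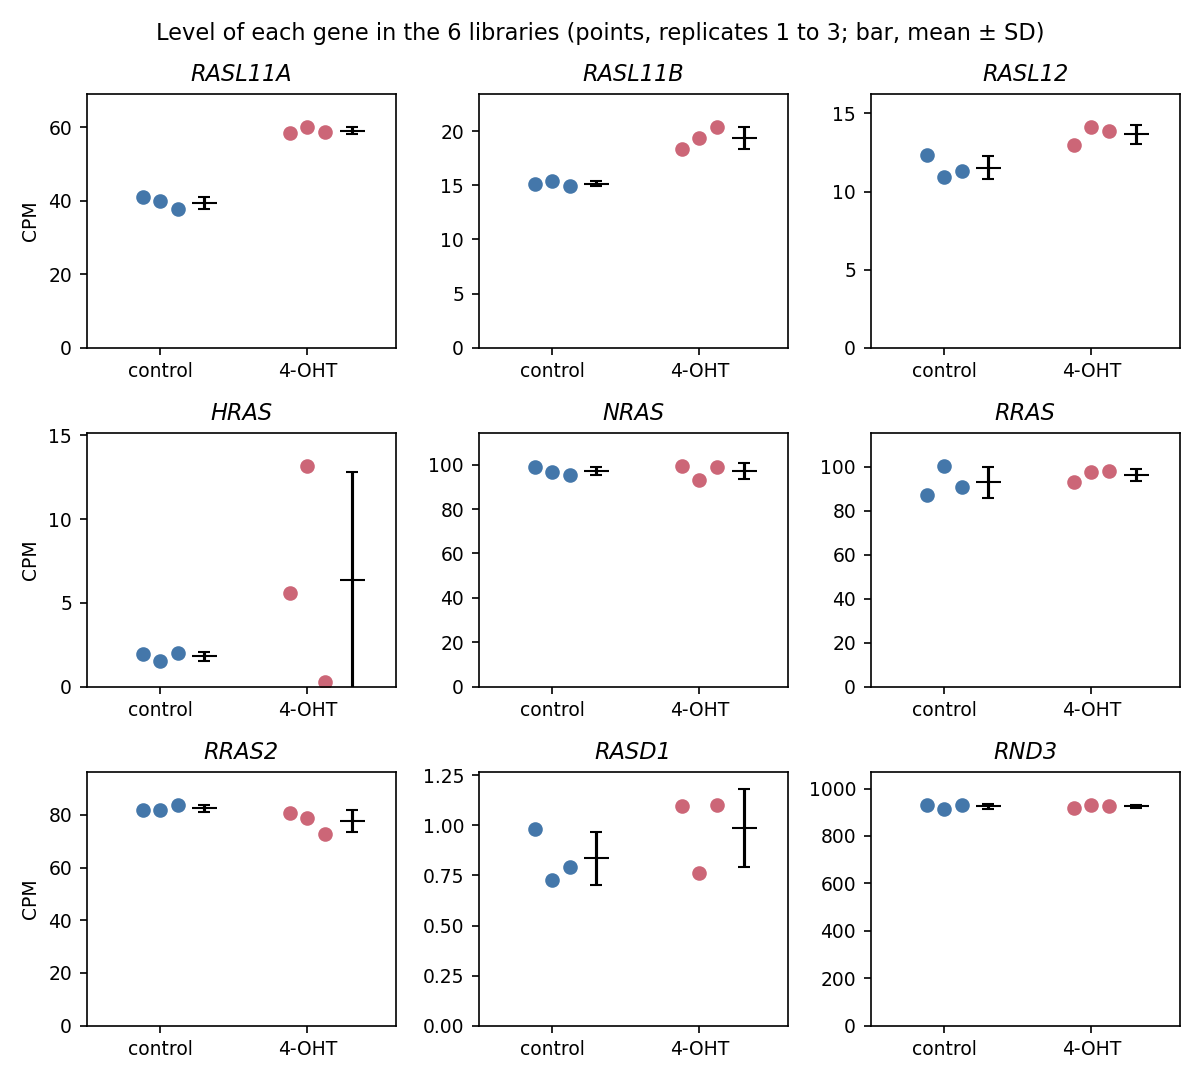
Level of each of the 9 genes in CPM, with 1 point per library (blue, control ATII CM; red, 4-OHT ATII CM) and a bar for the mean ± SD of the 3 libraries; each panel has its own axis from 0, and the lower end of the *HRAS* 4-OHT bar is cut at 0. The 4-OHT libraries of *RASL11A* sit between 58.3 and 60.1 CPM, above the control libraries at 37.7 to 40.9 CPM, while the *HRAS* 4-OHT libraries spread from 0.266 to 13.2 CPM.

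Of the classical genes, *HRAS* (ENSG00000174775; chromosome 11, 532242 to 537287, minus strand) was erratic. It had 41, 27 and 45 counts in the control libraries, and 122, 329 and 7 in the 4-OHT libraries. Of the 4-OHT libraries 1 was thus below every control library and 2 were above them all. The mean was 1.81 ± 0.257 CPM in control and 6.34 ± 6.50 CPM in 4-OHT libraries, and the log2 fold change of 1.79 had an SE of 0.679. *HRAS* was not called, and the size of its difference rests on single 4-OHT libraries: without 4-OHT replicate 2 the log2 fold change was 0.63, and without 4-OHT replicate 3 it was 2.37 and passed the threshold.

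*HRAS* was the only one of the 9 with a near-identical copy on an alternate contig of GRCh38. That contig has 210133 bases and aligns to chromosome 11 from 470360 to 678672. Among protein-coding genes of the neighbourhood with 100 or more counts, the 5 other than *HRAS* wholly inside that stretch had a highest raw count 2.05 to 11.9 times the lowest over the 6 libraries (median 3.38), beside 47.0 for *HRAS*, whose erratic counts prompted this look. The 13 genes outside it had ratios of 1.25 to 1.69 (median 1.47), and the 2 genes across its edges, *DEAF1* and *PTDSS2*, had 1.58 and 1.84. These raw counts were not scaled for library totals, which also differed. Inside the stretch *LRRC56*, *RASSF7* and *IRF7* had only 187, 157 and 163 counts in total, so their ratios also hold counting error. The 13 genes outside it had totals of 199 (*PKP3*) to 76657 (*IFITM3*). *RNH1*, a ribonuclease inhibitor gene next to *HRAS* inside the stretch, had 534, 195 and 93 counts in control and 97, 119 and 883 in 4-OHT libraries. *PHRF1*, also inside it, had 28, 96 and 149 against 134, 333 and 141 counts. The library with the fewest *HRAS* counts had the most *RNH1* counts, so the libraries did not keep 1 order over the stretch. Whether reads had been placed on the contig, and were then not counted for these genes, was not tested.

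**Figure D2:**
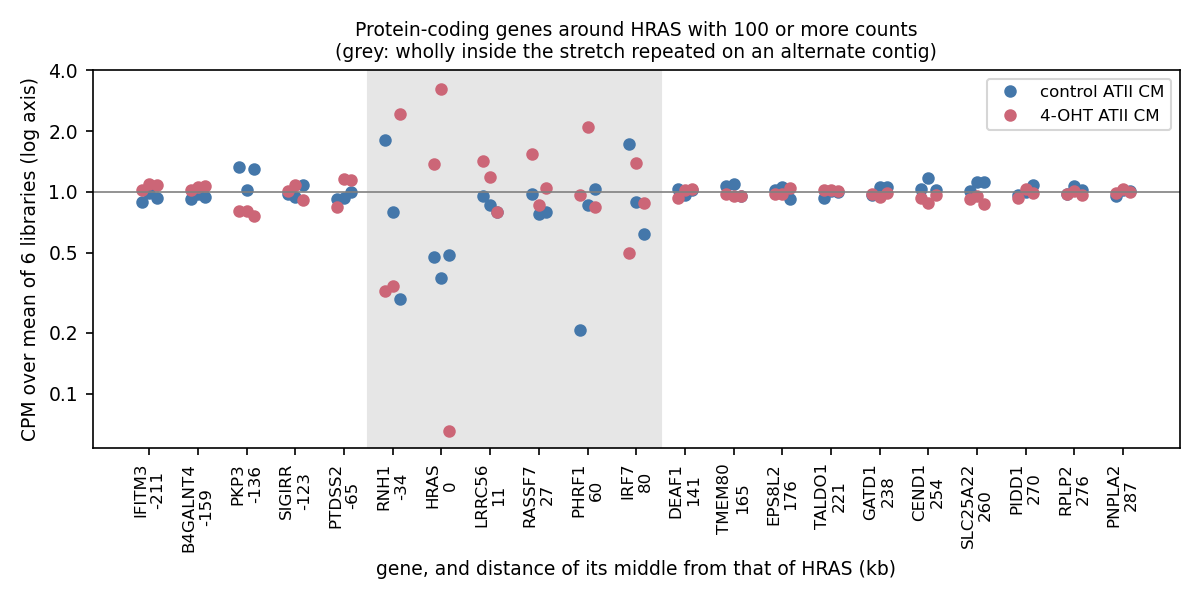
CPM by library total of each protein-coding gene with 100 or more counts around *HRAS*, divided by that gene's mean over the 6 libraries, on a log axis, with genes in chromosome order and their distance from *HRAS* in kb below (blue, control ATII CM; red, 4-OHT ATII CM). In the grey band, inside the stretch repeated on an alternate contig, *RNH1*, *HRAS*, *PHRF1* and *IRF7* scatter widely, while *LRRC56* and *RASSF7* scatter less; most genes outside it lie near 1, with *PKP3* more spread.

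*NRAS* (ENSG00000213281; chromosome 1, 114704469 to 114716894, minus strand) has no such copy and was steady. It had 2115, 1727 and 2161 counts in control and 2180, 2319 and 2604 in 4-OHT libraries. The means were 97.0 ± 1.89 and 97.2 ± 3.66 CPM, and the 95% interval of the log2 fold change ran from -0.082 to 0.086.

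The R-Ras genes differed little. *RRAS* (ENSG00000126458; chromosome 19, 49635292 to 49640201, minus strand) had 1866, 1796 and 2056 counts in control and 2041, 2431 and 2574 in 4-OHT libraries, and the groups overlapped. Its means were 92.9 ± 6.83 and 96.2 ± 2.60 CPM, a log2 fold change of 0.053 (95% interval -0.049 to 0.16). *RRAS2* (ENSG00000133818; chromosome 11, 14277926 to 14364506, minus strand) had 1745, 1461 and 1902 counts against 1772, 1970 and 1917. In CPM these were 81.8, 81.8 and 83.9 against 80.9, 79.0 and 72.9, the only member whose 4-OHT libraries all lay below the control libraries. The gap between the groups was under 1 CPM and *RRAS2* was not called, with a log2 fold change of -0.089 (95% interval -0.18 to 0.0023). The pseudogene *RRAS2P1* matches 66.6% of an *RRAS2* transcript at 98.5% identity, and had 0 to 1 counts per library. *SCP2*, a sterol carrier gene with 2987 to 4868 counts per library, matches 1 short *RRAS2* transcript over 726 bases (99.2% of it) on the opposite strand at 98.2% identity. *RRAS2* has 3453 merged exon bases, and its counts are uncertain over that part, where reads could be shared.

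*RASD1* (ENSG00000108551; chromosome 17, 17494437 to 17496395, minus strand) was at the lower end of what these libraries can measure. It had 21, 13 and 18 counts in control and 24, 19 and 29 in 4-OHT libraries, with a counting error of 18.6% to 27.7% on each. The log2 fold change of 0.23 had a 95% interval of -0.35 to 0.81, which includes both 0 and the value of *RASL11A* (0.58).

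*RND3* (ENSG00000115963; chromosome 2, 150468195 to 150539011, minus strand) was the most abundant member by far. It had 19850, 16303 and 21125 counts in control and 20060, 23169 and 24392 in 4-OHT libraries. The means were 925 ± 10.6 and 924 ± 7.13 CPM, and the 95% interval of the log2 fold change, from -0.058 to 0.056, was the narrowest of the 9.

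**Figure D3:**
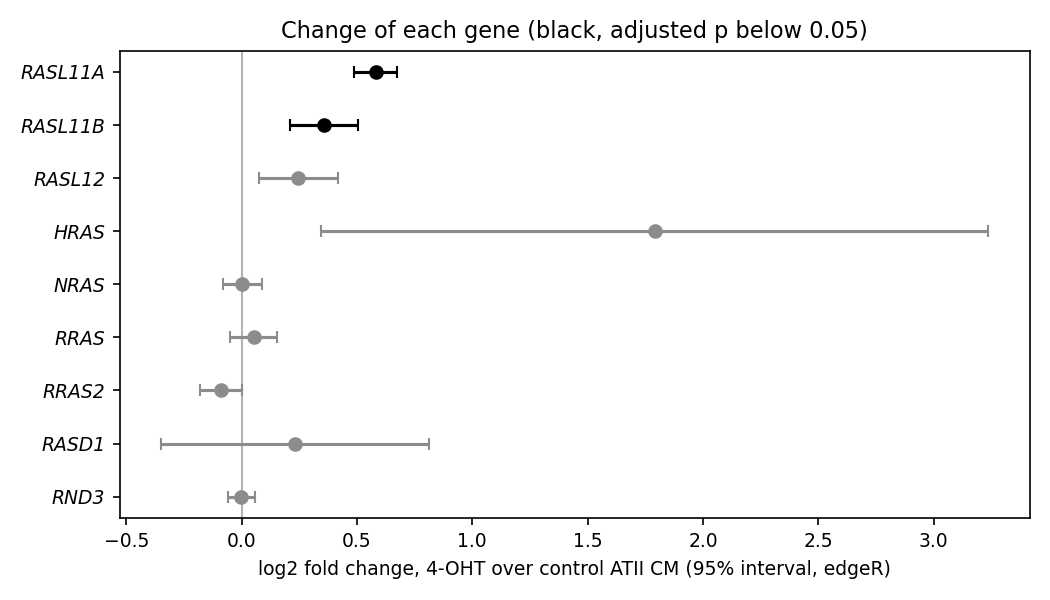
Log2 fold change of each gene, 4-OHT over control ATII CM, with its 95% interval from edgeR; black points have an adjusted p below 0.05. *RASL11A* (0.58) and *RASL11B* (0.36) are the black points, *HRAS* has the widest interval, and the intervals of *NRAS*, *RRAS* and *RND3* are narrow and include 0.

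To set the 9 genes beside each other, CPM was divided by the length of the gene's merged exons in kb, as the count table gives it. Per kb, *RND3* was at 257 ± 2.95 in control and 257 ± 1.98 in 4-OHT libraries, making up 61.4% and 58.8% of the sum over the 9 genes. *RRAS* came next at 80.1 ± 5.89 and 82.9 ± 2.24 CPM per kb. *RASL11A* followed with 24.3 ± 1.00 in control and 36.3 ± 0.588 in 4-OHT libraries, or 5.80% and 8.31% of the sum.

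In the control libraries *RASL11A* thus stood level with *RRAS2*, at 23.9 ± 0.359, and their libraries overlapped. *NRAS* was close below at 21.8 ± 0.425. In the 4-OHT libraries *RASL11A* stood clear of both, which had 22.5 ± 1.21 and 21.9 ± 0.823 CPM per kb and overlapped each other. *RASL11B* was at 6.13 ± 0.0979 and 7.84 ± 0.419 CPM per kb, above *RASL12* at 4.11 ± 0.269 and 4.88 ± 0.221 in every library. *HRAS* (0.974 ± 0.139 and 3.42 ± 3.50) and *RASD1* (0.478 ± 0.0760 and 0.565 ± 0.112) were lowest. Both groups gave the same order of means, but in the 4-OHT libraries *HRAS* overlapped its neighbours on both sides. With the length of the longest transcript in GENCODE 44, an annotation other than that of the counts (2542 bases for *RASL11A*, against 1624 merged exon bases), *RASL11A* fell below *RRAS2* and *NRAS* in control and between them in 4-OHT libraries. Leaving out control replicate 1 put *RRAS2* above *RASL11A*, leaving out 4-OHT replicate 2 put *NRAS* above *RRAS2*, and leaving out 4-OHT replicate 3 put *HRAS* above *RASL12*.

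The surrounding pathway was described with 7 lists of genes other than the members. Of their 142 genes 129 were tested, and 12 (9.30%) were called, 7 upward and 5 downward, beside 5.72% of all genes. That count rests in part on single libraries: it was 7 without control replicate 3, 7 without 4-OHT replicate 1, 6 without 4-OHT replicate 2 and 4 without 4-OHT replicate 3. Over all genes the calls fell from 1090 to 663, 786, 533 and 615 in the same 4 fits. Without control replicate 1 the lists had 9 calls and all genes 799, and without control replicate 2 they had 16 and 1530. Nothing is read from the lists' higher share, because the lists were chosen with earlier results of these data known. The median log2 fold change of each list lay between -0.075 and 0.042, and that of all genes was -0.0020.

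Of 21 further RAS-branch GTPases tested, 3 rose and none fell, with a median log2 fold change of 0.031. *RAP2A*, a RAP GTPase, went from 52.9 ± 2.48 to 60.2 ± 0.455 CPM (log2 fold change 0.19, edgeR adjusted p = 0.0151). *GEM*, which inhibits voltage-gated calcium channels, went from 29.0 ± 0.794 to 34.1 ± 1.95 CPM (0.23, adjusted p = 0.0208). *MRAS*, a RAS protein that works with SHOC2 in RAF activation, went from 72.4 ± 1.49 to 79.9 ± 1.80 CPM (0.14, adjusted p = 0.0407). None of the 3 calls was kept in every alternative, and without control replicate 3 or without 4-OHT replicate 3 the list had 0 calls.

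Among the regulators, 1 of 21 exchange factors fell and none rose, and without 4-OHT replicate 1 or without 4-OHT replicate 3 none was called. This was *RAPGEF2*, an exchange factor for RAP1, at 73.6 ± 5.31 against 63.1 ± 1.81 CPM (log2 fold change -0.22, edgeR adjusted p = 0.0115). Of 17 GAPs 1 rose and none fell, and 3 were called without control replicate 2. The log2 fold change was below 0 in 12 of the 17 and above 0 in 5. Not called but lower at an unadjusted p below 0.05 were *RAP1GAP2* (-0.34), *NF1* (-0.20) and *SIPA1L3* (-0.12). *SIPA1L2*, of a family of RAP GAPs, had 1033, 809 and 1215 counts in control and 1359, 1562 and 1648 in 4-OHT libraries, and went from 49.1 ± 4.20 to 62.5 ± 0.346 CPM (0.34, adjusted p = 0.000717).

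Of 30 effectors tested 3 rose and 2 fell, with a median of 0.0046. The 5 calls became 3 without control replicate 3 and 2 without 4-OHT replicate 2 or without 4-OHT replicate 3. *RASSF2*, of the RAS-association family linked to the MST kinases, had the smallest p of the lists and went from 92.3 ± 0.297 to 110.9 ± 0.749 CPM (log2 fold change 0.26, edgeR adjusted p = 0.000282). *RASSF4*, of the same family, went from 24.6 ± 0.668 to 29.9 ± 1.26 CPM (0.28, adjusted p = 0.00674). *RGL1*, an exchange factor for RAL, went from 38.8 ± 0.491 to 43.6 ± 1.95 CPM (0.17, adjusted p = 0.0435). *RIN1*, a RAS effector that activates RAB5, fell from 27.7 ± 1.17 to 22.4 ± 1.97 CPM (-0.31, adjusted p = 0.0108). *PIK3CD*, a catalytic subunit of PI3-kinase, fell from 29.8 ± 0.172 to 25.3 ± 0.965 CPM (-0.23, adjusted p = 0.0166).

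None of the 13 enzymes and chaperones of CAAX processing and none of the 12 genes of the RND3 list was called by edgeR, with medians of -0.00095 and 0.0024. The RND3 list holds *ROCK1* and also genes further along its route, such as *MYLK*, *LIMK1* and *CFL1*, which are not partners of RND3. At an unadjusted p below 0.05 there were 2 of the CAAX list, *LGALS1* (log2 fold change -0.11) and *PDE6D* (0.20), and 1 of the RND3 list, *CFL1* (-0.085). *LGALS1*, a galectin that binds HRAS, was called in 6 of the 13 alternatives (adjusted p of 0.0172 to 0.0488), among them DESeq2, limma-voom and 4 edgeR fits. No gene of the RND3 list was called by DESeq2 or limma-voom, but without control replicate 2 edgeR called 2, *MYLK* (log2 fold change -0.097) and *ROCK1* (-0.13). Of 15 genes of RNA polymerase I and its factors, listed because RASL11A has been placed in the nucleolus, none rose and 2 fell, of which 1 was left without control replicate 1 or without any 1 of the 4-OHT libraries. *POLR1A*, the largest subunit of the polymerase, went from 47.6 ± 1.09 to 39.4 ± 1.95 CPM (log2 fold change -0.27, edgeR adjusted p = 0.00257). *TAF1D*, a subunit of the promoter factor SL1, went from 57.6 ± 3.72 to 51.0 ± 0.787 CPM (-0.18, adjusted p = 0.0382). *SIPA1L2*, *RASSF2* and *POLR1A* were called under all 13 alternatives, and the other 9 called list genes lost their call in at least 1. Of the 142 genes 4 have a copy on an alternate contig, and none of these was called.

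**Figure D4:**
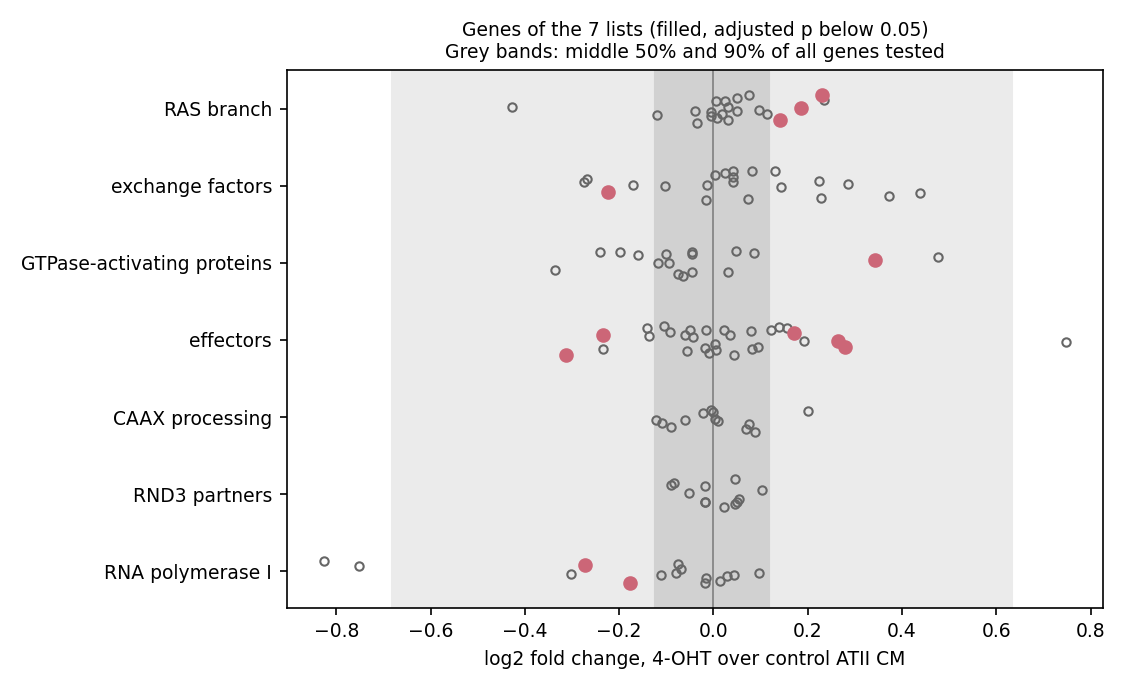
Log2 fold change, 4-OHT over control ATII CM, of the tested genes of the 7 lists, with 1 point per gene; filled points have an adjusted p below 0.05 and the grey bands hold the middle 50% and 90% of all genes tested. Most points of each list lie within the bands around 0, and filled points occur on both sides.

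The genes whose pattern over the 6 libraries was most like that of *RASL11A* were found by the root mean square difference of log2 CPM, each gene centred on its own mean, among 13050 genes with a mean of at least 1 CPM. The nearest was *S1PR1*, a receptor for sphingosine 1-phosphate, with a difference of 0.0398 and levels of 41.6 ± 0.316 CPM in control and 60.6 ± 2.20 CPM in 4-OHT libraries. *TSPAN12*, a tetraspanin (0.0558), *SULF1*, an extracellular heparan sulphatase (0.0573), *LXN*, a carboxypeptidase inhibitor (0.0598), and *AKR1C2*, a steroid-converting enzyme (0.0605), came next. Their log2 fold changes ran from 0.50 for *LXN* to 0.56 for *TSPAN12*, beside 0.58 for *RASL11A*. *RASL11B* was further away, at place 77 with a difference of 0.125, and *RASL12* at place 310 with 0.175. These points share the same 6 libraries and a common step between groups, so the likeness is a description.

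**Figure D5:**
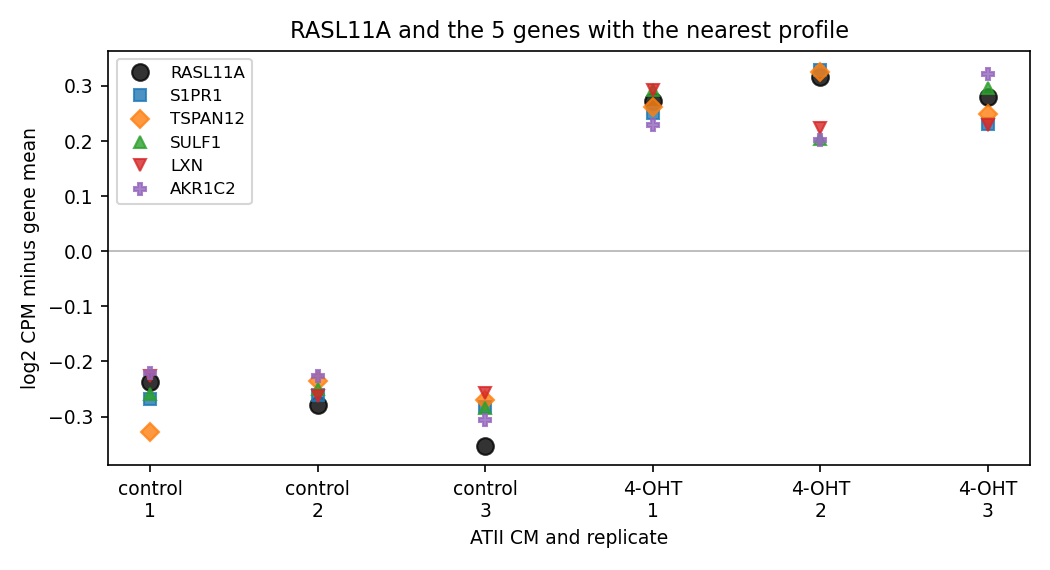
Log2 CPM minus the gene's own mean in each of the 6 libraries, for *RASL11A* (black) and the 5 genes with the nearest profiles. All 6 genes lie below 0 in the 3 control libraries and above 0 in all 4-OHT libraries.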

How the data were processed

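RNA-Seq of polyA RNA was analysed from 6 MRC5 libraries, 3 per group, grouped by treatment as the labels give it. The authors deposited raw read counts per gene, in the unit counts; per the labels and methods, reads were trimmed with Trim Galore, aligned to GRCh38 with HISAT2 (version 2.1.0) and counted with featureCounts (version 1.6.5), after FastQC and MultiQC. The annotation release, strand setting and treatment of multiply placed reads are not given in the sources used here. The deposited table had 58721 lines, with 45 identifiers on 2 lines each.

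Genes with at least 10 counts summed over libraries were tested with edgeR (version 4.0.16; TMM, quasi-likelihood, group as the only term, Benjamini-Hochberg over all genes tested, threshold 0.05). CPM are TMM-scaled. Merged exon lengths and positions came from the deposited table, symbols and transcripts from GENCODE 44 (whose gene spans differ for 6 of the 9 members), promoter windows from RefSeq, and alternate copies from minimap2 (version 2.31; at least 90% of the length at 98% identity). Correlations of same-numbered libraries' deviations from their group means were 0.063, 0.026 and 0.039, so the numbers were not taken as pairs. Alternatives used DESeq2 (version 1.42.0), limma (version 3.58.1) and other filters and scalings.

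The members and lists were chosen with earlier results of these data known, and 1 further list is not reported here. Named were the 9 members, up to 5 called genes of each list by p, the 5 profiles nearest to *RASL11A*, genes overlapping or neighbouring members, and markers. The genes around *HRAS*, *CD14* and the list genes given with values but not called in the main fit were chosen after their values were seen.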

Additional observations from a re-analysis of the deposited data

How the results depend on the processing

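*RASL11A* and *RASL11B* kept their direction and their call under all 13 alternative fits, with log2 fold changes of 0.54 to 0.61 and 0.32 to 0.40, and *RASL12*, *NRAS*, *RRAS*, *RRAS2*, *RASD1* and *RND3* were called in none. *HRAS* passed the threshold without the low-count filter (log2 fold change 1.80) and without 4-OHT replicate 3 (2.37). Leaving out a library gave 0.63 to 2.37, and limma-voom gave 0.48. Without the filter the edgeR adjusted p of *HRAS* was 3.4e-24, though 4-OHT replicate 3, with 7 counts, lay below every control library. That of *RASL11A* was 1.2e-31, beside 2.7e-06 in the main fit. The small p-values of the fit without the filter are therefore taken with caution. The change of *NRAS*, near 0, took the other sign with library totals (-0.0044), with filterByExpr (-0.00052) and in leave-outs (-0.016 to 0.032), and that of *RND3* without the filter (0.0080) and in leave-outs (-0.010 to 0.010). Over all genes 1090 were called, 533 (without 4-OHT replicate 2) to 1530 (without control replicate 2) when one library was left out, 663 without control replicate 3 and 615 without 4-OHT replicate 3. With a change of at least 1.5-fold asked as well 92 were called, without *RASL11A* (1.496-fold) and *RASL11B* (1.28-fold), with no filter 1601, with DESeq2 959 and with limma-voom 1132. The 12 calls in the pathway lists ranged from 4 (without 4-OHT replicate 3) to 16 (without control replicate 2) in leave-outs. Control replicate 2, the library with the lowest total (17691849 counts), differed most from its group. The chi-squared per degree of freedom of its counts was 6.03 with control replicate 1 and 5.27 with control replicate 3. Between control replicates 1 and 3 it was 2.12, and pairs of 4-OHT libraries had 2.42 to 3.10. With the replicate block 985 genes and 10 list genes were called and *RASL11A* was at 0.58; every library correlated best with its own number, but at values too low to take the numbers as pairs. Depth limits *RASD1*, with 13 to 29 counts per library.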

Other observations

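The nearest neighbours of *RASL11A* on chromosome 13 with at least 10 counts summed over libraries were read beside it. Genes below that count may lie closer. *RPL21*, a ribosomal protein gene that ends 13.6 kb before it, was at 533 ± 9.72 CPM in control and 539 ± 14.2 CPM in 4-OHT libraries (log2 fold change 0.018, edgeR adjusted p = 0.836). *USP12*, a deubiquitinase gene 98.4 kb before it, was at 61.6 ± 4.02 and 65.3 ± 0.913 CPM (0.086, adjusted p = 0.370), with every 4-OHT library above every control library. *LINC02340*, in between, had 1 to 5 counts per library. On the other side, *GTF3A*, a transcription factor of 5S ribosomal RNA genes that starts 150.9 kb away, was at 66.2 ± 4.61 and 66.2 ± 3.56 CPM (0.0024, adjusted p = 0.991), and *MTIF3* and *LNX2* beyond it were not called (0.093 and -0.051). None of these 6 neighbours was called by edgeR, DESeq2 or limma-voom, and 0 of them had an unadjusted p below 0.05 in any of the 3.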
